A study of Mus musculus with 8 samples.

Results

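Secreted Wnt modulators, Frizzled receptors and the Daam formins were followed in pressure-loaded mouse ventricles. The group was set by a fixed list of 10 gene symbols out of 18193 genes with a probe set of their own on the array, namely Sfrp1, Sfrp2, Frzb, Dkk3, Fzd1, Fzd2, Fzd4, Fzd7, Daam1 and Daam2. Where a gene had several probe sets, that with the largest average over the 8 arrays was read, and all 10 were among the 9607 genes tested. TG mice, 4 in number, carried a CHF1/Hey2 transgene under the mlc2v promoter, which drives it in the myocardium, and WT mice, also 4 in number, did not. All were FVB males aged 8 to 12 weeks whose ascending aorta had been banded for 1 week, so no value below says what banding itself did. Total RNA of the ventricles was read on Affymetrix Mouse Genome 430 2.0 arrays, 1 per mouse, as log2 expression.

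Wnt proteins signal by binding Frizzled receptors, proteins that cross the membrane many times and carry a cysteine-rich domain outside the cell. Secreted Frizzled-related proteins hold a domain of the same kind and bind Wnt proteins before these reach a receptor. Inside the cell, Dishevelled passes the signal either to beta-catenin or, through Daam formins, to the actin skeleton. In the adult heart the secreted modulators are known mainly as products of fibroblasts and other interstitial cells.

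No gene of the 10 passed in the comparison of TG with WT ventricles, whose question was what CHF1/Hey2 in the myocardium changes when the ventricle works against a raised pressure (limma with Benjamini-Hochberg adjustment over 9607 genes, adjusted p of 0.813 or more for each). Calls were made for 0% of all genes tested, with 153 genes at an unadjusted limma p under 0.05. Lower at that unadjusted level was 1 of the 10 genes, Daam2, against 0.375% of all genes. All 4 secreted modulators had lower means in TG, the 4 Frizzled receptors were divided, and both formins had lower means in TG. Lower means held for 8 of the 10 genes, against 43% of all genes tested, and without TG_3 for 6 of the 10, against 39.4%. The median difference of the 10 was -0.44, against 0.06 over all genes. This median rested largely on TG_3: it was -0.099 without TG_3, against 0.12 over all genes, and -0.25 without both TG_2 and TG_3, against 0.05. TG_3 held the lowest of the 8 values for 8 of the 10 genes, which was so for 23.5% of all genes.

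The arrays were not equally alike, and this touches nearly every value below. In TG_2, 37.2% of genes differed over 2-fold from the other arrays' median, and in TG_3 9.27% did, against 0.749% to 1.55% in each of the other 6 arrays. Myocyte markers were high throughout, with a summed level of 10 genes between 18.30 and 18.59 (log2) in TG and between 18.50 and 18.54 in WT, and all 6 lymphocyte markers on the array lay below 5. Hey2, the gene of the construct, lay between 5.70 and 6.26 in TG and between 5.68 and 6.76 in WT. The labels do not say whether its probe set reads the construct, so it does not check them.

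**Figure D1:**
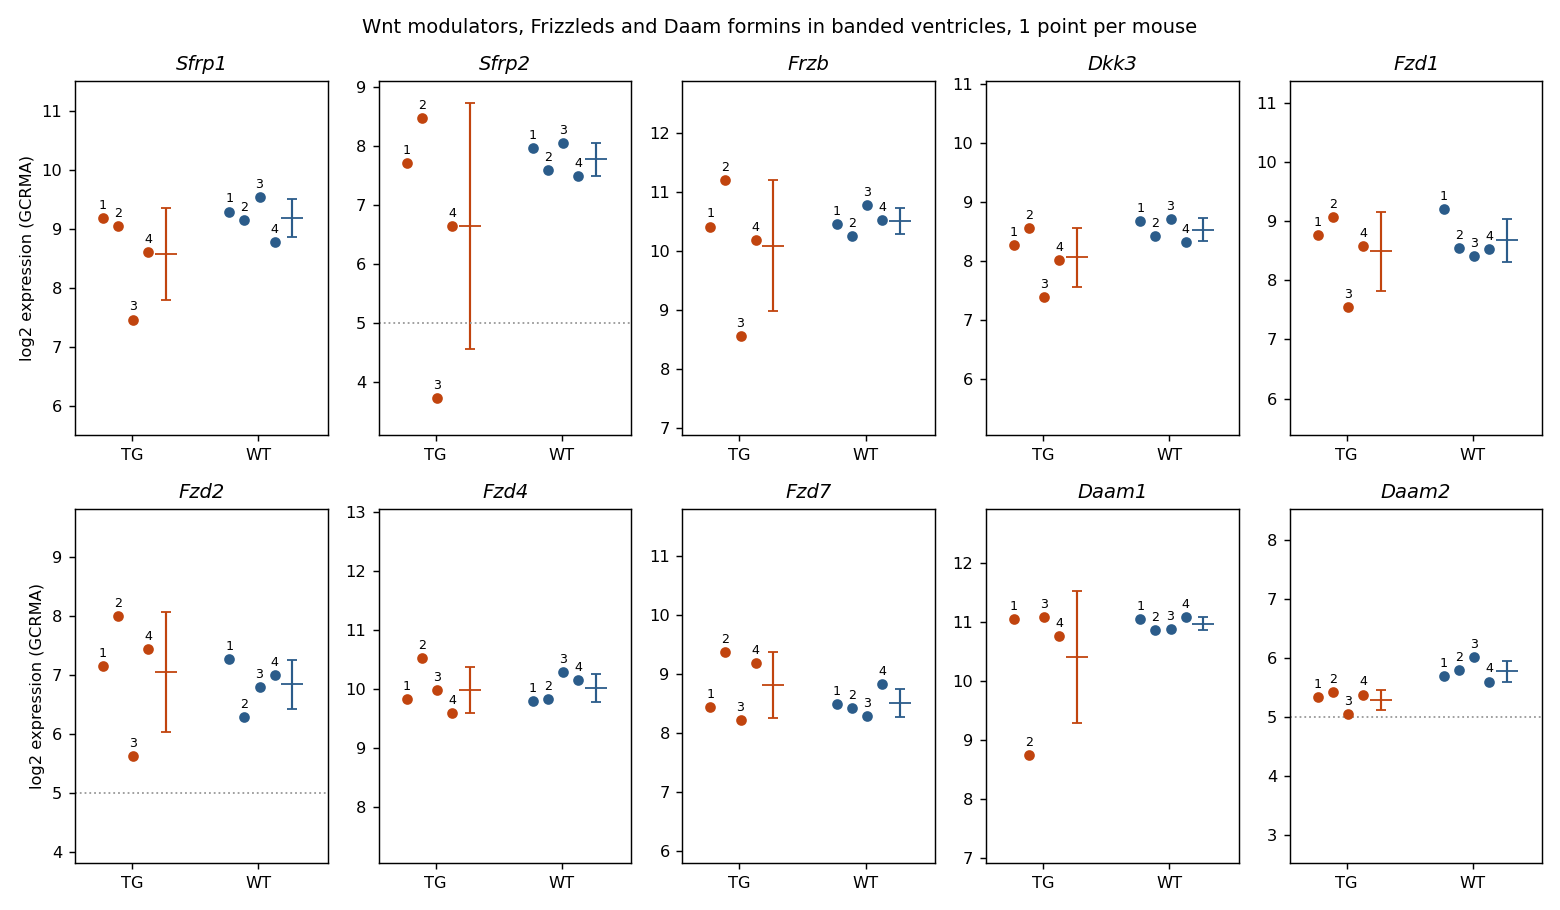
Log2 expression (vertical axis) of each gene in each mouse, TG left and WT right, with replicate numbers at the points and the mean and SD as a bar beside them. The dotted line marks a log2 value of 5, and every panel spans 6 log2 units. Sfrp2 in TG_3, at 3.73, is the only value under that line, and Daam2 is the only gene whose groups do not overlap.

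Sfrp2 encodes a secreted Frizzled-related protein that in mice also acts on the processing of procollagen. Its start region is shown because Sfrp2 had the widest span of the 10 genes. Capitals mark the letters CGCGTG, the reverse complement of CACGCG, an E-box-like site of the kind that Hey and Hes repressors are known to bind.
Sfrp2, chr3:83766071-83766370, plus strand: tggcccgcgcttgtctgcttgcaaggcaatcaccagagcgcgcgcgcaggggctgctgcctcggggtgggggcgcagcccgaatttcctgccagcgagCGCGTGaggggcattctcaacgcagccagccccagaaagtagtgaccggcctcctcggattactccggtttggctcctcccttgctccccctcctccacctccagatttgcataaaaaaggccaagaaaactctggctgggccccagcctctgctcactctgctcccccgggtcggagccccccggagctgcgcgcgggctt

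The sequences of start regions are RefSeq's on GRCm38.p6, with 250 bases before and 50 from the annotated start of the gene, and 7 of the 10 genes matched, with 9 windows among them. Sfrp1, Dkk3 and Fzd2 had no window. On both strands 4 motifs were searched, none of which overlaps another. The E-box CACGTG was held by 7.15% of all 32851 windows of this length, and its variant CACGCG by 9.27%. Of the sites that TCF and LEF factors bind, the form CTTTGAT was held by 3.73% of windows and the form CTTTGTT by 5.85%. Among the 9 windows CACGCG occurred in 1, that of Sfrp2, from base -152 to base -147 before the start, and CTTTGTT in 1, that of Fzd7. A match of letters is a description of the window and no evidence of binding.

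Sfrp2 had log2 values of 7.71, 8.48, 3.73 and 6.65 in TG mice 1 to 4, against 7.97, 7.60, 8.05 and 7.49 in WT mice 1 to 4. TG_3 and TG_4 lay below every WT mouse, TG_2 above every one, and TG_1 among them. The groups therefore overlapped, and the difference of -1.13 had a 95% confidence interval from -3.16 to 0.89 (limma). Without TG_3 the difference was -0.16, without TG_2 it was -1.75, and without both it was -0.59. The value of TG_3 was below a log2 value of 5, where GCRMA values of probe sets with and without signal are hard to tell apart, so its deviation of -4.05 from the WT mean depends on that low end of the scale.

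Sfrp1, another secreted Frizzled-related protein, read 9.19, 9.06, 7.47 and 8.61 in TG mice, against 9.30, 9.15, 9.55 and 8.78 in WT mice. TG_3 was the lowest of the 8 mice and TG_4 the next, while TG_1 and TG_2 lay within the WT range. The difference was -0.61 (interval -1.47 to 0.25; exact permutation p = 0.171), or -0.24 without TG_3 and -0.29 without both TG_2 and TG_3. Sfrp1 has 5 probe sets, and TG_3 was lowest on each of them. On probe set 1460187_at the TG mice had 7.20, 6.59, 4.81 and 5.28, against 7.38, 7.14, 7.25 and 6.84 in WT mice, so the deviation of TG_4 from the WT mean was -1.87 there and -0.59 on the probe set used. The value of TG_3 on 1460187_at lay under a log2 value of 5. On 1416594_at TG_2 was the highest mouse, at 8.47, whereas on 1428136_at, at 8.40, it lay below all 4 WT mice, so the probe sets disagreed on that mouse.

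Frzb, also called sFRP3, had 10.41, 11.20, 8.55 and 10.18 in TG mice, against 10.45, 10.25, 10.77 and 10.52 in WT mice. TG_2 was the highest and TG_3 the lowest of all, and TG_4 lay just under the WT range. The difference of -0.41 (interval -1.53 to 0.70) became 0.096 without TG_3, -0.79 without TG_2 and -0.20 without both. The second probe set of Frzb gave the same extremes, with TG_2 at 9.98 and TG_3 at 6.97, against 8.23 to 8.92 in WT mice.

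Dkk3 is a divergent Dickkopf protein whose part in Wnt signalling is less settled than that of its relatives. It had 8.27, 8.55, 7.38 and 8.01 in TG mice, against 8.67, 8.42, 8.70 and 8.31 in WT mice. TG_1, TG_3 and TG_4 lay below every WT mouse, and TG_2 lay among them. With a difference of -0.47 (interval -1.06 to 0.12), Dkk3 stood at rank 612 of 9607 by p. The difference was -0.25 without TG_3, -0.64 without TG_2 and -0.38 without both. Its other probe set likewise placed TG_1, TG_3 and TG_4 below every WT mouse, with 6.91, 6.20 and 7.10, against 7.12 to 7.90 in WT mice.

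In TG_3 some fibroblast markers were low together with these 4 genes, and others moved little. The summed level of 12 fibroblast markers was 15.84 (log2) in TG_3, 16.92 to 17.11 in the other TG mice, and 16.96 to 17.19 in WT mice. Sums were taken of unlogged values, so the markers with the highest levels weigh most in them. Of the 12 markers 10 had a lower mean in TG, against 43% of all genes tested. Without both TG_2 and TG_3, 7 of the 12 did, against 3333 of 9607 genes. The median difference of the 12 was -0.46, or -0.069 without TG_3. Of the 12 markers 0 passed, and 0 lay below a log2 value of 5 on average. In TG_3 Col1a1, a chain of type I collagen, deviated by -3.66 from its WT mean, whereas Gsn, gelsolin, deviated by 0.41 and Dpt, dermatopontin, by -0.08. The summed level of 8 macrophage markers was also lowest in TG_3, at 12.97, against 13.54 to 14.37 in WT mice, and highest in TG_2, at 14.74. Single macrophage markers were divided. In TG_2 Cd163 and Mrc1 deviated by -2.10 and -1.97 from their WT means, and the rest were higher, up to 1.92 for Cd68. In TG_3 Cd163 deviated by 0.36, and the rest were lower, down to -1.20 for C1qb. Sums of smooth muscle and pericyte, atrial myocyte and skeletal muscle markers were lowest in TG_3 too. They were 14.20, 13.79 and 15.18 there, against lowest WT values of 14.46, 14.83 and 15.32. The markers of these lists did not move together. In TG_3 the atrial markers Nppa and Nr2f2 deviated by -2.03 and -0.52 from their WT means. Stard10, Myl7, Sln and Myl4 deviated by 1.18, 1.09, 0.86 and 0.46. Of the 7 skeletal muscle markers 5 lay below a log2 value of 5 on average. Of the others, Acta1 deviated by -0.65 and Ckm by 0.22. The smooth muscle and pericyte markers ran from -2.70 for Cnn1 to 0.30 for Kcnj8. The sums of the other marker lists were not lowest in TG_3. The part of these cell types in the values of the Wnt genes was not tested, and in whole ventricles fewer cells of a type and less RNA per cell cannot be told apart.

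**Figure D2:**
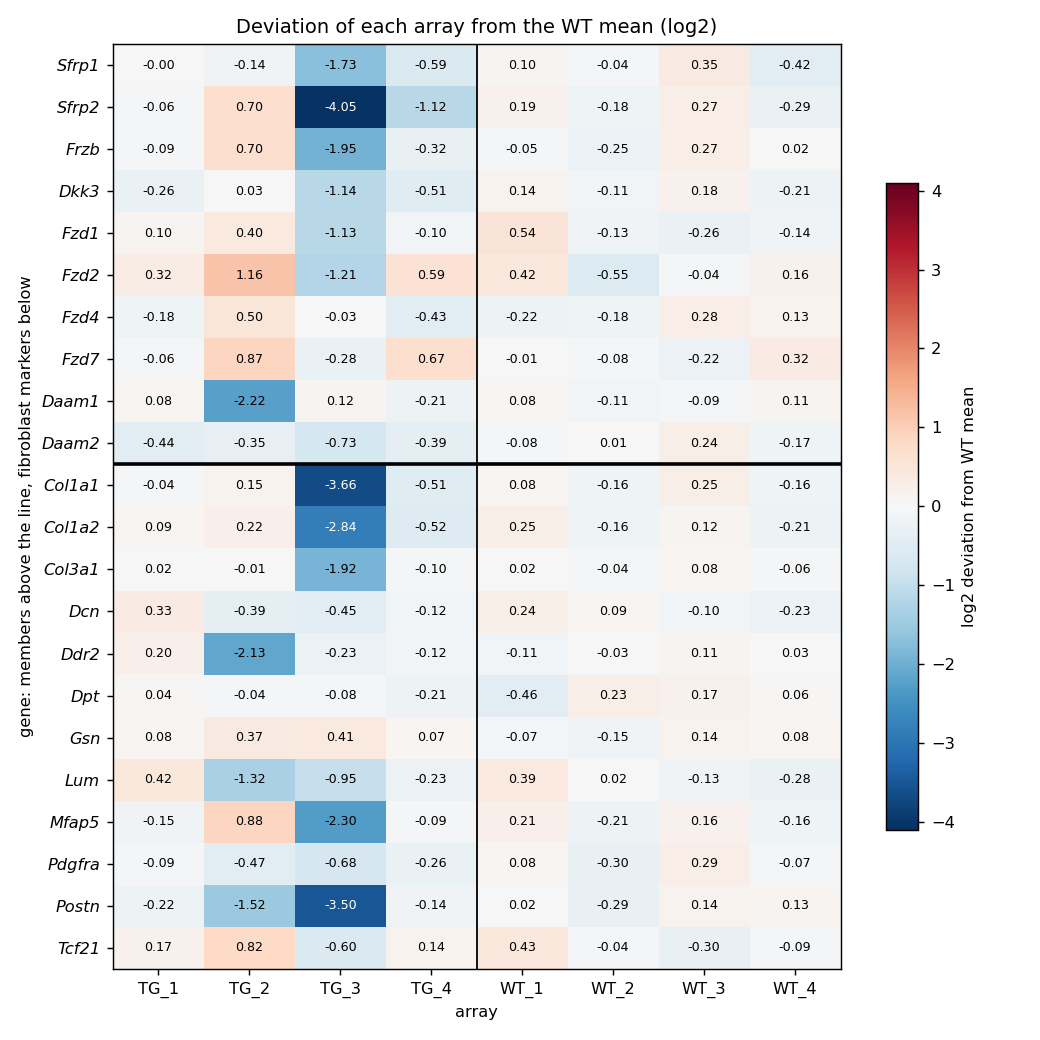
Deviation of each array (columns, TG left) from the WT mean of the gene (rows), in log2 units, blue for lower and red for higher. The 10 genes stand above the line and the 12 fibroblast markers below it. The deepest blue lies in TG_3, at -4.05 for Sfrp2 and -3.66 for Col1a1, while Daam1 at -2.22 and Ddr2 at -2.13 are low in TG_2 instead.

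TG_4, which resembled the WT arrays over all genes, was also low for most of this group, while Fzd2 and Fzd7 were above all 4 WT mice. TG_4 lay below all 4 WT mice for 7 of the 10 genes, namely the 4 secreted modulators, Fzd4, Daam1 and Daam2, against 9.12% of all genes tested. In TG_1 this held for 2 of the 10 genes, against 14.1%. In TG_3 it held for 8, against 33.5%, and in TG_2 for 2, against 33.5%. Deviations of over 1 log2 unit below the WT mean were found in TG_3 for 6 of the 10 genes, against 6.26% of all genes, and in TG_2 for 1, Daam1, against 20.5%. The fibroblast sum of TG_4, at 16.92, lay just below the lowest WT value of 16.96, and so did that of TG_2, at 16.94.

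Among the receptors, Fzd1, Fzd2 and Fzd7 form a closely related subfamily. Fzd2 had 7.16, 8.01, 5.63 and 7.44 in TG mice, against 7.27, 6.30, 6.80 and 7.01 in WT mice. TG_2 and TG_4 lay above every WT mouse and TG_3 below every one. The difference was 0.22 (interval -0.87 to 1.30), -0.10 without TG_2, 0.69 without TG_3 and 0.46 without both, so leaving out TG_2 alone turned its sign. All 3 probe sets of Fzd2 placed TG_2 highest and TG_3 lowest. Their spans were wider than that of the probe set used, from 4.32 to 8.50 on 1418533_s_at and from 4.16 to 7.84 on 1418532_at in TG mice, against 5.80 to 7.31 and 5.76 to 6.66 in WT mice. The values of 4.32 and 4.16, both in TG_3, lay under a log2 value of 5.

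Fzd7 had 8.45, 9.38, 8.23 and 9.18 in TG mice, against 8.50, 8.43, 8.29 and 8.83 in WT mice. TG_2 and TG_4 lay above every WT mouse, and TG_3 just below the lowest. The difference of 0.30 (interval -0.35 to 0.95) did not pass. It was 0.11 without TG_2, 0.49 without TG_3 and 0.31 without both. The second probe set of Fzd7 stayed between 2.39 and 2.52 in all 8 mice, the level of probe sets without signal, and could not serve as a check. The window at the start of Fzd7 is shown because it held the other motif match, with the letters AACAAAG, the reverse complement of CTTTGTT, in capitals from base -130 to base -124.
Fzd7, chr1:59481897-59482196, plus strand: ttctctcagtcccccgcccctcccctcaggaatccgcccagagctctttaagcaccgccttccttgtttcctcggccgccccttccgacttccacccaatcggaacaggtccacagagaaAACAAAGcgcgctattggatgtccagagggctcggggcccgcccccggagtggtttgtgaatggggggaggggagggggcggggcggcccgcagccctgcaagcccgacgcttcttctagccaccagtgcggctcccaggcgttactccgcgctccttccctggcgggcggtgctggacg

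Fzd1 had 8.78, 9.08, 7.54 and 8.58 in TG mice, against 9.21, 8.55, 8.41 and 8.54 in WT mice. TG_3 alone lay outside the WT range, and WT_1 stood above the other WT mice. The difference was -0.18 (interval -0.97 to 0.60). It was 0.13 without TG_3, -0.38 without TG_2 and 0.00050 without both.

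Fzd4, known as the receptor of norrin in retinal vessels, is expressed by endothelial cells. It had 9.83, 10.52, 9.99 and 9.59 in TG mice, against 9.79, 9.83, 10.29 and 10.15 in WT mice. The ranges overlapped, with TG_2 highest and TG_4 lowest, and the difference was -0.03 (interval -0.57 to 0.50), or -0.21 without TG_2 and -0.31 without both TG_2 and TG_3. TG_3, low for the other secreted and receptor genes, deviated by -0.03 from the WT mean of Fzd4, and by 0.20 and 0.42 on its other 2 probe sets. The summed level of 8 endothelial markers was 12.64 in TG_3 and 13.42 in TG_2, against 12.38 to 12.91 in WT mice. In TG_2 Kdr and Tek deviated by -0.33 and -0.19 from their WT means, and the rest were higher, up to 1.23 for Pecam1. The part of endothelial cells in the value of Fzd4 was not tested.

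**Figure D3:**
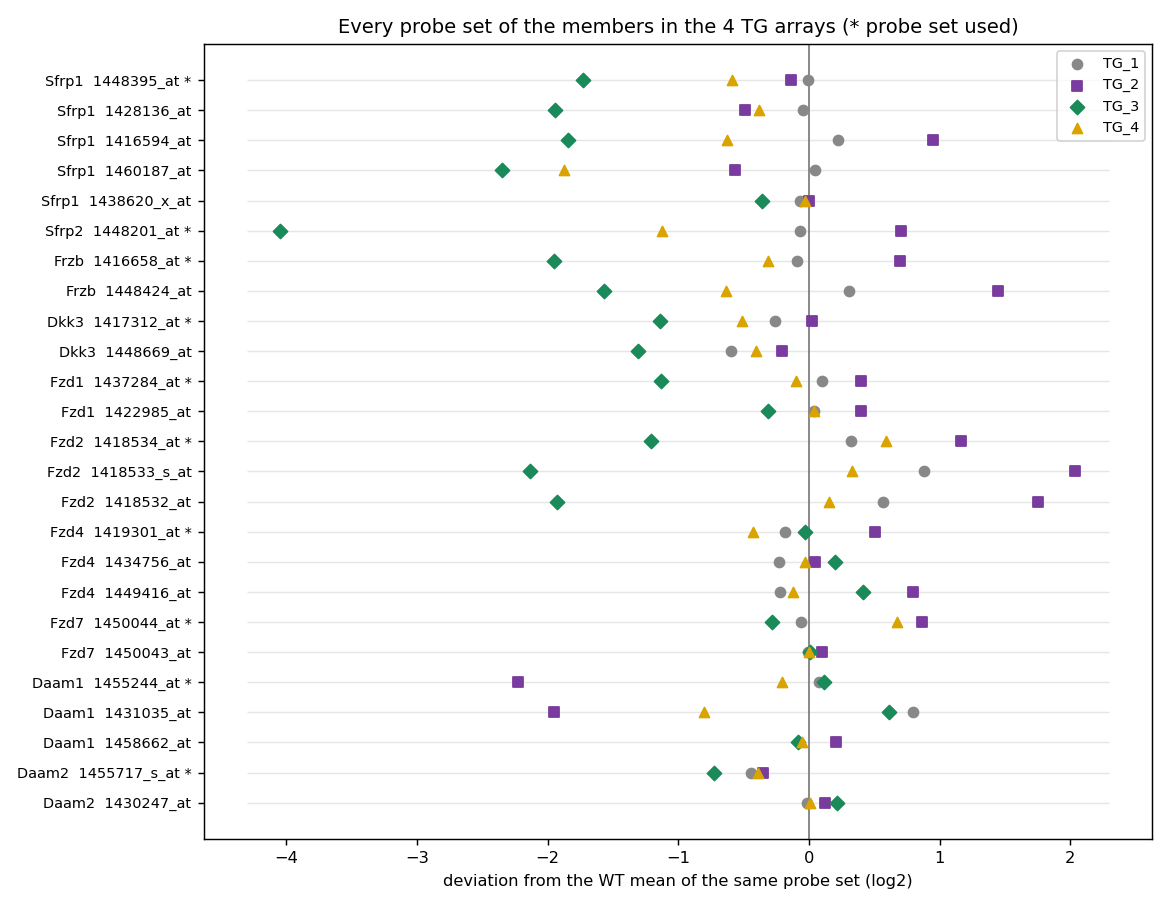
Deviation of the 4 TG arrays from the WT mean of the same probe set (horizontal axis, log2) for all 25 probe sets of the 10 genes, with an asterisk at the probe set used. TG_3 lies at the left for Sfrp1, Sfrp2, Frzb, Dkk3, Fzd1 and Fzd2, at -4.05 for Sfrp2, and TG_2 lies at the left for 2 of the 3 probe sets of Daam1, at -2.22 and -1.95. Probe sets with a mean under 5, such as 1450043_at of Fzd7, show little movement.

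Daam1 and Daam2 are formins that bind Dishevelled and build actin filaments, and Daam1 is needed for normal maturation of the mouse ventricle. Daam1 had 11.05, 8.75, 11.09 and 10.77 in TG mice, against 11.06, 10.87, 10.89 and 11.08 in WT mice. TG_2 alone stood far down, TG_4 lay slightly under the WT mice, and TG_1 and TG_3 lay at their level. The difference of -0.56 (interval -1.67 to 0.55) became -0.0044 without TG_2, and it was -0.78 without TG_3. On the second probe set of Daam1 the lowest mouse was again TG_2, at 5.10, against 6.32 to 7.71 in WT mice.

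Daam2 had 5.33, 5.42, 5.04 and 5.38 in TG mice, against 5.69, 5.78, 6.0 and 5.60 in WT mice. All 4 TG mice lay below all 4 WT mice, which held for no other gene of the 10 and for 0.479% of all genes tested. Daam2 averaged 5.29 ± 0.17 in TG and 5.77 ± 0.17 in WT (SD, n = 4 each), and the difference was -0.48 (interval -0.86 to -0.10). The exact two-sided permutation p was 0.0286, the smallest that 4 against 4 mice allow. After adjustment over all genes Daam2 did not pass (limma adjusted p = 0.813), and it stood at rank 31 of 9607 by p. Its unadjusted limma p of 0.0196 became 0.0656 without WT_3, 0.0884 with quantile normalization on top and 0.069 with the replicate number as a block, so its place under 0.05 was lost in these 3 settings. Over the arrays left out in turn the difference lay between -0.54 and -0.39, and without TG_2 and TG_3 it was -0.42.

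All 8 values of Daam2 lay between 5.04 and 6.0, close to the level of 5 that a probe set had to exceed in 4 arrays to be tested. They came from 1455717_s_at, a probe set whose suffix marks probes shared by several transcripts. The only other probe set of Daam2 lay between 2.80 and 3.02 in TG mice and between 2.80 and 2.83 in WT mice, the level of probe sets without signal, with a mean 0.08 higher in TG. The separation of the groups thus rests on 1 probe set of low signal. One of the 2 Daam2 windows is shown because it was the gene whose groups did not overlap, and none of the 4 motifs occurred in it, so it has no capitals.
Daam2, chr17:49564288-49564587, minus strand: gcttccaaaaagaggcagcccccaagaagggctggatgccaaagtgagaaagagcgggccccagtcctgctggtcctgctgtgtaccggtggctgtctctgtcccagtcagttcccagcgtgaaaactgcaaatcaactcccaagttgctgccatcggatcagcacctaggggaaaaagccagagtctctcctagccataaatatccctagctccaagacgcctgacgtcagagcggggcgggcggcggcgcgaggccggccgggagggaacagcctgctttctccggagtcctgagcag

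**Figure D4:**
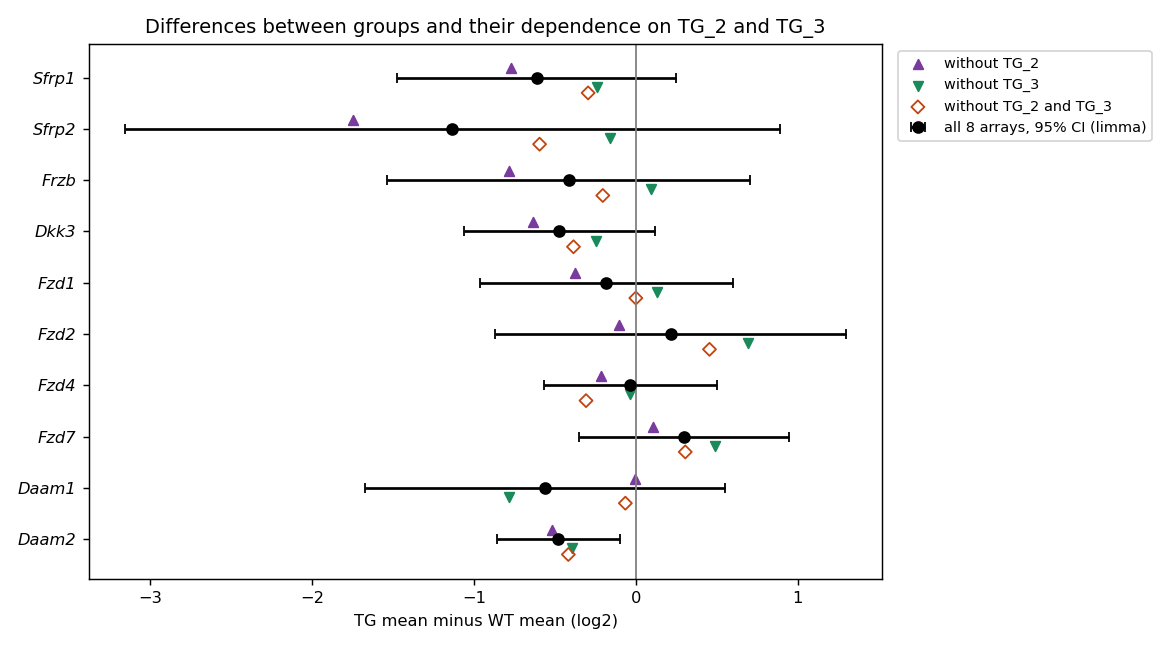
Difference between the TG mean and the WT mean (horizontal axis, log2) of each gene, with the 95% confidence interval of limma over all 8 arrays in black, and the same difference without TG_2, without TG_3 and without both as coloured points. Only the interval of Daam2, from -0.86 to -0.10, leaves out 0, before adjustment over genes. The point of Sfrp2 moves between -1.75 without TG_2 and -0.16 without TG_3.

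The spread of the genes lay mostly in the TG mice. The SD was larger in TG than in WT for 9 of the 10 genes, against 89.1% of all genes, and over 2 times as large for 7, against 63%. These shares are close to those of all genes. Sfrp2 had an SD of 2.08 in TG and 0.27 in WT, and Daam1 1.12 and 0.11. Daam2, with 0.170 in TG and 0.175 in WT, was the exception.

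The genes whose profiles lay closest were sought among all genes tested, by the root mean square distance between deviations from the WT mean over the 8 arrays, a measure that TG_2 and TG_3 dominate. The nearest to Sfrp2 were Mfap4, a protein of elastic fibres, and Col1a1, at distances of 0.305 and 0.327 log2 units. Mfap4 had 10.75, 11.64, 7.43 and 10.23 in TG mice, against 10.96, 10.43, 11.51 and 10.80 in WT mice. Like Sfrp2 it was lowest in TG_3 and highest in TG_2, which largely follows from its choice as the nearest profile. The nearest to Frzb were Col6a1 and Col16a1, both collagen chains, at 0.117 and 0.119. Sfrp1 lay nearest to Arsb and Ctss, lysosomal enzymes, at 0.172 and 0.213, and Dkk3 to Cemip2 and Lhfp at 0.155 and 0.164. For Fzd1 the nearest were Anxa7 and Iffo1 at 0.136 and 0.148, for Fzd2 Masp1 and Ift46 at 0.138 and 0.163, and for Fzd7 Zfp703 and Atmin at 0.137 and 0.166. Daam1 had Mzt1 and Zc3h13 at 0.0859 and 0.109. Among the 10 genes themselves, the nearest to Sfrp1 was Dkk3, at 0.254, with 7 other genes closer, and the nearest to Daam1 was Daam2, at 0.770, with 3179 genes closer. For Dkk3, Sfrp2, Frzb, Fzd1, Fzd2 and Fzd7, 28, 61, 147, 279, 624 and 4146 genes lay closer than the nearest of the 10.

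Other genes of the Wnt pathway were read from 6 lists with 102 genes, of which 51 were tested. None passed in either direction (limma, 0 at an adjusted p under 0.05 and 0 at an unadjusted p under 0.05), 29 had a higher and 22 a lower mean in TG, and their median difference was 0.06, the value of all genes at this rounding, or -0.064 without TG_2 and 0.16 without TG_3. Of 19 Wnt ligands 4 were tested, and all 4 had a higher mean in TG, with a median of 0.33 that was 0.10 without TG_2. Wnt5a, a ligand of the branch without beta-catenin, had 5.92, 5.86, 6.84 and 6.35 in TG mice, against 5.97, 5.91, 5.60 and 5.90 in WT mice. TG_3 and TG_4 stood above the WT mice and the other TG mice did not. Wnt11 differed by 0.33, or by 0.13 without TG_2 and 0.089 without both TG_2 and TG_3. Wnt9a differed by 0.33, or by 0.067 without TG_2 and 0.64 without TG_3.

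Of the other secreted modulators and their receptors, 4 of 22 were tested, 2 higher and 2 lower, with a median of 0.02 that was 0.20 without TG_3. Wif1, a secreted Wnt inhibitor of another fold, had 8.62, 7.35, 9.50 and 8.07 in TG mice, against 7.63, 7.71, 7.37 and 7.91 in WT mice. TG_1, TG_3 and TG_4 lay above every WT mouse and TG_2 below every one, and the difference of 0.73 did not pass (limma adjusted p = 0.813). It was 0.36 without TG_3 and 1.08 without TG_2. In TG_3, where Sfrp2 was lowest of all mice, Wif1 was highest of all. Lgr4, a receptor of R-spondins, differed by -0.33, or by -0.083 without TG_2. Kremen1, a receptor of Dickkopf proteins, differed by 0.14, or by 0.021 without TG_2 and 0.29 without TG_3.

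The other Frizzleds and co-receptors had 3 higher and 4 lower means among 7 of 12 tested. Their median was -0.01, or -0.16 without TG_2 and -0.33 with the mean of all probe sets of a gene. Ror1, Lrp6 and Ryk differed by -0.61, -0.55 and -0.43, and without TG_2 and TG_3 by -0.16, 0.02 and -0.02. Of the beta-catenin branch 17 of 21 were tested, 11 higher and 6 lower, with a median of 0.11 that turned to -0.017 without TG_2. Csnk1a1, Axin1 and Bcl9l differed by -0.34, 0.21 and 0.19, and without TG_2 by -0.082, 0.071 and 0.083. Common targets of beta-catenin, with 5 of 9 tested, had a median of -0.00077, which was 0.41 without TG_3 and 0.19 without both TG_2 and TG_3. Axin2, a feedback inhibitor induced by beta-catenin, had 5.82, 5.03, 5.42 and 6.09 in TG mice, against 4.96, 5.15, 5.40 and 5.42 in WT mice, and the groups overlapped. Nkd2, a Dishevelled antagonist, was between 7.45 and 8.45 in TG_1, TG_2 and TG_4, against 6.96 to 7.96 in WT mice. In TG_3 it was 3.80, under a log2 value of 5, so its deviation there depends on the low end of the scale. Ccnd1, cyclin D1, differed by -0.11, or by -0.25 without TG_3.

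The planar polarity branch had 7 higher and 7 lower among 14 of 19 tested, with a median of 0.02 that was -0.10 without TG_2 and 0.16 without TG_3. Prickle1, a core polarity protein, had 7.49, 7.87, 7.35 and 7.58 in TG mice, against 7.32, 7.43, 7.17 and 7.10 in WT mice. Only TG_3, below WT_2, kept its groups from separating, and the difference of 0.32 did not pass (exact permutation p = 0.0571; limma adjusted p = 0.813). Prickle2 differed by 0.30, or by 0.14 without TG_2 and 0.58 without TG_3. Rock1, a kinase that acts on the actin skeleton, differed by -0.91, or by -0.02 without TG_2 and 0.12 without both TG_2 and TG_3. In TG_2 it read 7.78, against 11.04 to 11.52 in WT mice.

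**Figure D5:**
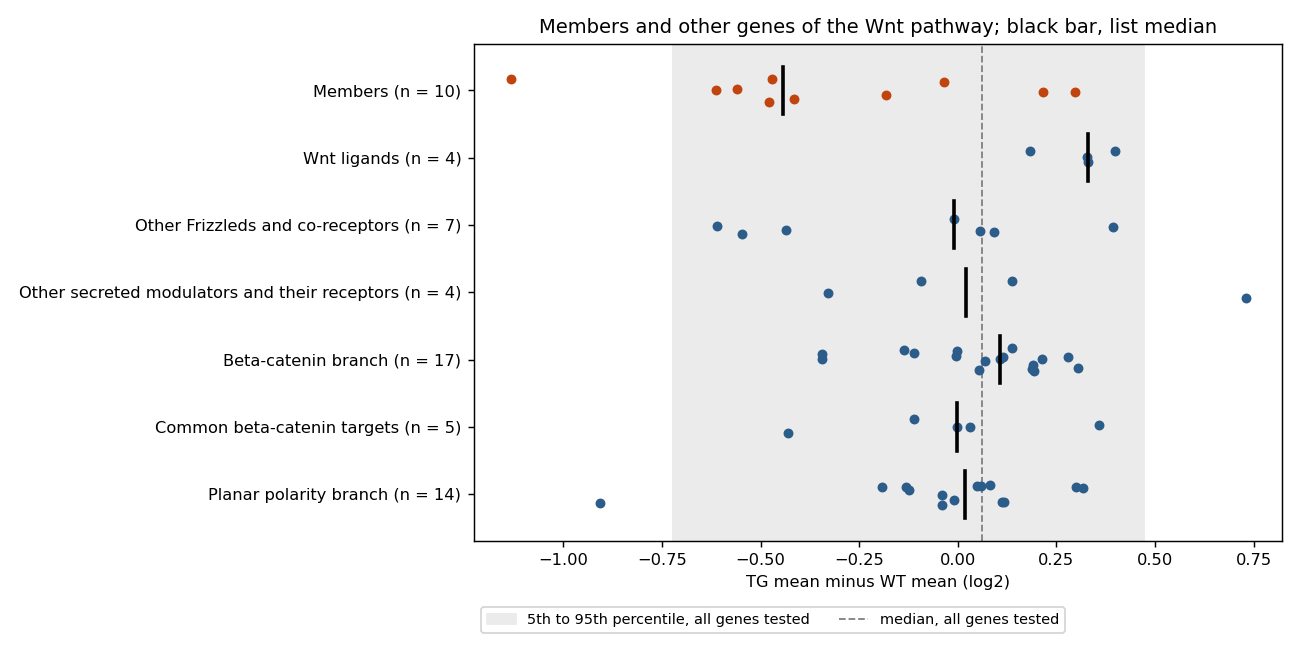
Difference between the TG mean and the WT mean (horizontal axis, log2) of the 10 genes, in orange, and of the tested genes of 6 Wnt pathway lists, in blue, with the list median as a black bar, the median of all genes as a dashed line and their 5th to 95th percentile in grey. The median of the 10 genes, -0.44, lies left of those of the 6 lists, which run from -0.01 to 0.33. Without TG_3, which the plot includes, it was -0.099 and those of the lists ran from 0.03 to 0.41.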

How the data were processed

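Ventricular RNA of 8 mice was measured, 1 array per mouse. The authors deposited log2 expression values, made with GCRMA per the submitters' processing notes (version not given in the sources used here), which corrects probe background by base composition, normalizes by quantiles and can compress low values. Values ran from 0.837 to 16.11. Arrays hold no counts, so precision depends on how many there are and on the spread between mice.

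Of 45101 probe sets, 34958 had 1 gene symbol. Probe sets above log2 5 in at least 4 of 8 arrays were kept, and the one with the highest mean served each of 9607 genes. Groups came from the titles. TG minus WT was fitted with limma 3.58.1 in R 4.3.3 on all 8 arrays, no block included. Adjustment was Benjamini-Hochberg's at 0.05, and confidence intervals were of 95%. Exact two-sided permutation tests were run for single genes. The genes and lists were chosen with earlier results of these data known. Named were the 10 genes, the 3 smallest p of each pathway list, the 2 nearest profiles and some marker genes. Among these markers were the extremes of the fibroblast list in TG_3. Alternatives changed the filter, scaling, model, probe set rule, threshold and the arrays used. Deviations of mice with the same replicate number correlated at 0.296 and 0.2 for numbers 1 and 4, and at -0.00561 and -0.334 for 2 and 3. Not every pair was above 0.1, so numbers were not taken as pairs.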

Additional observations from a re-analysis of the deposited data

Results flagged for a closer look

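For each of the 10 genes and the 18 pathway genes with the smallest p of their lists, the 4 values of a group were checked for 1 mouse far from the other 3 by Dixon's criterion at its 95% level. Chance marks about 1 in 20 groups, and 7 of 56 were marked, against 11.9% of the groups of all genes tested. Of the 28 genes 5 were marked in TG_2, against 15.5% of all genes. Daam1 in TG_2 was 8.75, Csnk1a1 in TG_2 was 10.81, Ror1 in TG_2 was 6.11, Lrp6 in TG_2 was 6.67 and Rock1 in TG_2 was 7.78, each the lowest of its group. In WT mice, Fzd1 in WT_1 was 9.21, the highest of its group, and Ryk in WT_4 was 7.87, the lowest. Sfrp2 in TG_3, at 3.73, was not marked, since TG_4 also lay below the other TG mice.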

How the results depend on the processing

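The count of genes passing was 0 in each direction at an adjusted p under 0.05 in every alternative except array weights, where 1 gene, Inmt, outside the Wnt lists, was higher; it is named after its value was seen. With limma's array weights TG_2 counted 0.0519 and TG_1 6.62. None of the 10 genes passed in any alternative, with adjusted p from 0.215 to 1. Of 178 alternative values for the 10 genes, 166 kept their sign. Array weights gave 0.097 for Fzd1, -0.033 for Fzd7 and 0.015 for Daam1, the mean of all probe sets gave 0.060 for Fzd4, and leaving out both TG_2 and TG_3 gave 0.00050 for Fzd1. Sfrp1, Sfrp2, Frzb and Dkk3 kept their sign with array weights but shrank to -0.083, -0.32, -0.23 and -0.29. Without weights they were -0.61, -1.13, -0.41 and -0.47. Leaving out 1 array at a time gave -0.82 to -0.24 for Sfrp1, -1.75 to -0.16 for Sfrp2, -0.79 to 0.096 for Frzb, -0.64 to -0.25 for Dkk3, -0.38 to 0.13 for Fzd1, -0.10 to 0.69 for Fzd2, -0.21 to 0.097 for Fzd4, 0.11 to 0.49 for Fzd7, -0.78 to -0.0044 for Daam1 and -0.54 to -0.39 for Daam2, and between 6 and 9 of the 10 genes with a lower mean in TG. The cause of these turns was not tested beyond the arrays named. The replicate block passed 0 genes in each direction, left the difference of Daam2 at -0.48 (limma adjusted p = 0.845), and had 147 genes at an unadjusted p under 0.05, against 153 without it. Daam2 was not measured without shared-probe sets or with the mean of its probe sets, which fell under the filter. Of 108 list medians, 106 moved by less than the spread between TG arrays. The other 2 were common beta-catenin targets, at 0.41 without TG_3, and other Frizzleds and co-receptors, at -0.33 with the mean of all probe sets, against -0.00077 and -0.01 with all arrays and 1 probe set per gene. That spread includes TG_2 and TG_3, so a median could change sign and still count among the 106. With array weights the Wnt ligand median of 0.33 became -0.018 and the beta-catenin branch median of 0.11 became -0.024. Without the filter on low values the Wnt ligand median was 0.061. Signal near a log2 value of 5 limits Daam2.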
